A study of Caenorhabditis elegans with 3 samples.

Results

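Orphan peaks inside protein-coding genes are sites where RNA polymerase III (Pol III) was found within a gene that another polymerase transcribes, with no annotated small RNA gene close by. The authors' reproducible list held 395 of them beside 1519 other peaks, a share of 20.6% (exact binomial 95% interval 18.8 to 22.5%). A peak was taken when its summit lay more than 200 bp from every annotated non-coding RNA gene and tRNA pseudogene, more than 500 bp from every protein-coding transcription start site (TSS), and within the body of a protein-coding gene. The choice used position only and no measured height. The chromatin came from whole young adult *Caenorhabditis elegans* hermaphrodites of strain YL517, whose inserted transgene puts a GFP-FLAG tag on the C terminus of RPC-1, the largest Pol III subunit. Chromatin was sheared by sonication, the fusion was precipitated through its GFP, and the 3 samples are biological replicates of this 1 group. Whole animals were used, so a peak cannot be placed in a tissue, and the labels do not say which promoter drives the fusion or whether untagged RPC-1 is also present. The input or other control libraries were not analysed here.

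Pol III makes tRNAs and other short RNAs. At a tRNA gene its promoter lies inside the transcribed stretch and has a pair of short elements, the A box and, further downstream, the B box. The assembly factor TFIIIC binds both, the initiation factor TFIIIB is then placed upstream, and the polymerase stops at a run of T on the coding strand. Both boxes encode parts of the tRNA itself, so a decayed tRNA gene or a repeat derived from one can keep them.

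The first set shows the 5 strongest orphan peaks that lie in introns and the 3 strongest with an exact B box, because their sequence is what a reader would look for in a hidden Pol III promoter. The peak in tlp-1, the 4th strongest of all, lies in an untranslated region and is not shown. Each line gives the host gene and the stretch around the best B box near the summit, 5′ to 3′ on the strand of the box, from the RefSeq assembly WBcel235, identical in sequence to ce11. Capitals mark the B box and, where one was found with at most 1 mismatch, the A box upstream of it.
zip-7, chrIV:16503712-16503799, minus strand: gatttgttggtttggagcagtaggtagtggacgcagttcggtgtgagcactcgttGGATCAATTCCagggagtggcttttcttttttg
lips-10, chrII:8441621-8441703, minus strand: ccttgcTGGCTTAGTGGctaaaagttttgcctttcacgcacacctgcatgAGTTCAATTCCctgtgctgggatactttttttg
srt-52, chrV:53477-53559, plus strand: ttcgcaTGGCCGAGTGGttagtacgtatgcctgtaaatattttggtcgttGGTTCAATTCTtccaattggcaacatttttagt
Y105C5A.15, chrIV:15693446-15693539, plus strand: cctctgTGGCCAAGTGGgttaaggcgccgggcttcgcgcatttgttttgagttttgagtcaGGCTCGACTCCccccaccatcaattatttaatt
elf-1, chrIII:698994-699081, minus strand: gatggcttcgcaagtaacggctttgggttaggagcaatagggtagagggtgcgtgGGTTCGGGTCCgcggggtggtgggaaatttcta
gfrl-1, chrIV:2657421-2657508, minus strand: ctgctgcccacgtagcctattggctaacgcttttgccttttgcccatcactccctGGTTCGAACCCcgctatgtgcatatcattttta
Y59E1A.4, chrX:1939385-1939466, minus strand: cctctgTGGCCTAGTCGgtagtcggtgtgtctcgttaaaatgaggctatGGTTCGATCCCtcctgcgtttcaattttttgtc
Y54F10BM.9, chrIII:2304256-2304338, minus strand: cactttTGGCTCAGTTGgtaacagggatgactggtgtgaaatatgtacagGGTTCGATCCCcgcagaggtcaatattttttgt
The stretches of gfrl-1, Y59E1A.4 and Y54F10BM.9 hold the B box with no mismatch and are the strongest orphan peaks in genes that do. Those of zip-7, lips-10, srt-52, Y105C5A.15 and elf-1 hold it with 1 mismatch. In the lips-10, srt-52 and Y54F10BM.9 stretches the A box starts 44 bp before the B box, in that of Y59E1A.4 43 bp, and in that of Y105C5A.15 55 bp. Those of zip-7, elf-1 and gfrl-1 have no A box within 1 mismatch.

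A second set is shown because it is the commonest resemblance among the orphan peaks in genes. The first line is F53B1.t1, an annotated tRNA pseudogene on the X chromosome, and the others are stretches under 4 orphan peaks for which it was the best match among all tRNA genes and tRNA pseudogenes. That in T02C5.1 has the highest signal of the 60 such peaks and no A box within 1 mismatch. The other 3 are the strongest intronic ones on the X chromosome with an A box. Only 7 of the 60 have an A box, so these 3 are not typical of them.
F53B1.t1, chrX:2125762-2125833, minus strand: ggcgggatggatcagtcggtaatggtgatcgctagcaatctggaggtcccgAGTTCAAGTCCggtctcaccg
T02C5.1, chrX:2696728-2696815, minus strand: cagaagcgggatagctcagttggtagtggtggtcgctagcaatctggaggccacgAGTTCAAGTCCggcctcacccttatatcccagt
sto-2, chrX:5309755-5309837, minus strand: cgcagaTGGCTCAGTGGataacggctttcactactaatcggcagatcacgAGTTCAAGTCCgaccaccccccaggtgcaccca
C11H1.7, chrX:14328932-14329014, minus strand: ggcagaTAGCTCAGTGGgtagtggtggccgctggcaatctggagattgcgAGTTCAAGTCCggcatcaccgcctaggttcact
unc-7, chrX:15128970-15129052, minus strand: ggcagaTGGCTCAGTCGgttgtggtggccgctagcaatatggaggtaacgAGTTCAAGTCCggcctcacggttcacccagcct
The same B box, with 1 mismatch, stands in all 5 lines. The alignments to F53B1.t1 covered 58 bp at 75.9% identity in sto-2, the lowest of the 60, 67 bp at 82.1% in C11H1.7 and 65 bp at 86.2% in unc-7. The window under the sto-2 peak has no similar copy in the genome, whereas those in C11H1.7 and unc-7 belong to repeats with 151 and 157 copies, themselves included.

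The 395 summits fell on 365 distinct intervals with a median length of 497 bp and a range of 150 to 2075 bp. An interval was shared with another summit by 72 of them, and with a summit of another kind of site by 13. These summits are not independent, so the intervals on shares are too narrow to that extent. Although no summit was close to a non-coding RNA gene, the interval itself overlapped one in 15 cases, and 1 of these was a tRNA gene. The median distance was 4077 bp to the nearest non-coding RNA gene or tRNA pseudogene, 105385 bp to the nearest tRNA gene and 1987 bp to the nearest TSS. Only 6 summits lay within 1000 bp of a tRNA gene. Nearest to the small RNA limit were the peaks in fbxo-11.2, at 210 bp from the tRNA pseudogene BE0003N10.t6 with signal 225, in srv-3, at 213 bp with signal 163, and in F23G4.1, at 222 bp with signal 230.6. Just outside that limit were the peaks in cpd-2 (196 bp, signal 156), unc-68 (186 bp, signal 141) and W03C9.6 (184 bp, signal 141). Nearest to the TSS limit were C49A1.10 (517 bp, signal 194), src-2 (523 bp, signal 366) and pho-14 (530 bp, signal 821). The peaks in irld-17 (500 bp, signal 328), lea-1 (497 bp, signal 83.8) and scyl-1 (495 bp, signal 122) were just outside it.

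Nearly all of these peaks were in introns. The summit was in an intron in 375 of 395 cases (94.9%, interval 92.3 to 96.9%), in an untranslated region (UTR) in 14 (3.54%) and in coding sequence in 4 (1.01%). The other 2 lay in str-81, a chemoreceptor gene, outside its annotated mRNA. The same distance rule is met by 44.8% of the bases of the nuclear genome. Of those bases 54.7% are intronic, 5.85% in a UTR and 39.2% coding, so coding sequence held fewer summits than its share of the eligible bases. Each replicate's own list was also cut to its strongest peaks, to the length of the reproducible list, and is called its top list here. A peak counts as found in a replicate when its interval overlaps a peak of that top list by at least 1 bp. Of all reproducible peaks 84.0% were found in every replicate. In the 3 top lists the rule picked 333, 323 and 315 peaks, and 93.3% ± 1.41 of them were intronic (mean ± SD, n = 3). The introns were long. Their median length was 1338 bp, with quartiles of 650.5 and 2711.5 bp, against 972 bp over the eligible intronic bases, with quartiles of 456 and 2346 bp. The first intron of a transcript held 76 of the 375 summits (20.3%). The median distance to the nearest intron edge was 335 bp.

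The peaks gathered toward the chromosome ends. With each chromosome divided into 3 equal parts, and the first and last called its left and right arm, 348 of 395 summits were on an arm (88.1%, interval 84.5 to 91.1%), against 66.9% of the eligible bases. Over all reproducible peaks the share was 78.6%, and over the peaks at tRNA genes 65.1% (interval 61.0 to 69.0%). Orphan peaks between genes had 85.1% there and peaks near a TSS 91.8%, so this placement was not particular to the peaks in genes. The density was 10.2 peaks per eligible megabase on the left arms, 3.16 in the middle and 13.1 on the right arms. In the top lists the arm share was 89.5% ± 1.11 for orphan peaks in genes and 63.9% ± 0.410 for peaks at tRNA genes (mean ± SD, n = 3). It was higher for the orphan peaks in 3 of 3 replicates, by 25.6 ± 1.50 percentage points. With 3 replicates the smallest p of an exact sign-flip test is 0.25, and neither this difference nor the later ones between replicates were tested.

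**Figure D1:**
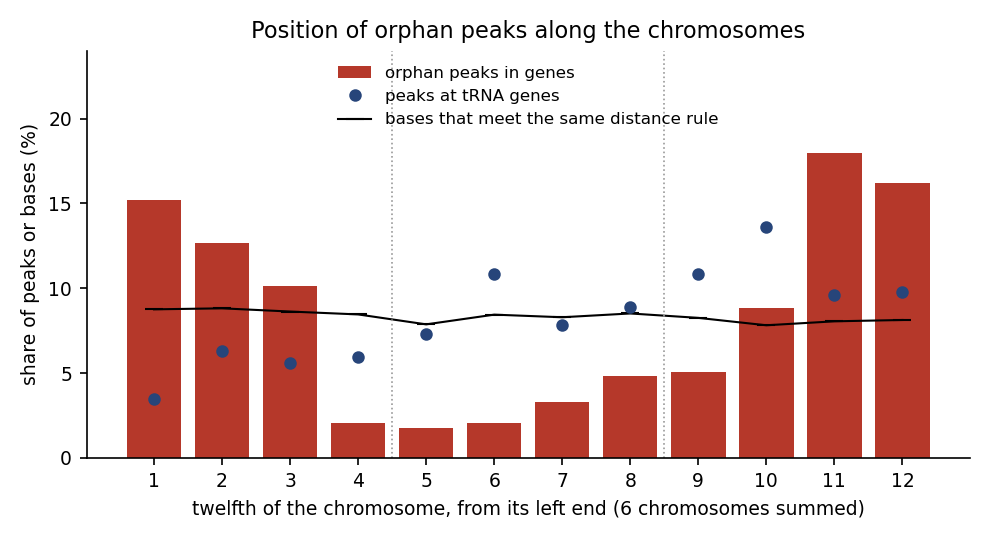
Share of orphan peaks in genes (bars), of peaks at tRNA genes (dots) and of bases meeting the same distance rule (line), in % of each, by twelfth of the chromosome with the 6 nuclear chromosomes summed; dotted lines bound the middle part between the arms. The bars reach 15.2% in the first twelfth and 18.0% in the eleventh and stay at or below 5.06% from the fourth to the ninth, while the line stays between 7.82% and 8.81%.

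The chromosomes differed in which end was rich. On chromosome V the right arm had 73 of 88 peaks, or 24.8 per eligible megabase, against 2.42 on its left arm. On chromosome III the left arm had 47 of 62, or 18.5 per eligible megabase, and the right arm 4.77. Chromosome I was also rich on the right, with 14.4 against 4.17, and chromosome IV on the left, with 13.3 against 7.88. The X chromosome had 12.9 on the left and 17.2 on the right. Its overall density of 10.9 peaks per eligible megabase was the highest of the 6, against 8.39 on the autosomes and 10.1 on chromosome V.

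A B box was searched on both strands within 100 bp of the summit, as GGTTC, a purine, A, any base, a pyrimidine and CC with at most 1 mismatch. It was present at 259 of the 395 peaks (65.6%, interval 60.7 to 70.2%). Over all reproducible peaks the share was 66.6%. Among bases that meet the same distance rule 2.31% have such a box within the same reach, and 0.246% have one with no mismatch. The orphan peaks in genes had an exact B box in 129 cases (32.7%). Peaks at tRNA genes had the box in 80.1% of cases and an exact one in 76.3%. Orphan peaks between genes stood close to those within genes, at 62.1%, and peaks near a TSS at 64.4%. In the top lists the share was 64.2% ± 1.00 for orphan peaks in genes, 60.8% ± 0.986 between genes and 67.3% ± 2.18 at tRNA genes (mean ± SD, n = 3). The orphan peaks in genes exceeded those between genes by 3.40 ± 1.30 points, in 3 of 3 replicates.

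An A box, searched as TGGC, 2 bases of any kind and AGTGG with at most 1 mismatch on the same strand, preceded the B box at 130 of the 395 peaks (32.9%, interval 28.3 to 37.8%). Over all reproducible peaks this share was 34.6%, and at tRNA genes it was 42.2%. The search looked 25 to 80 bp upstream, but the spacing took few values. The A box started 42 bp before the B box at 19 of the 130, 43 bp before it at 55 and 44 bp before it at 44. Spacings of 43 or 44 bp made up 76.2% (interval 67.9 to 83.2%), against 70.2% (interval 64.1 to 75.9%) of the peaks at tRNA genes with both boxes. The remaining 12 peaks had spacings of 46 to 61 bp, among them Y105C5A.15 and Y73F8A.26 with 55 and 54 bp. A run of at least 4 T within 60 bp downstream of the B box followed it at 178 peaks (45.1%), against 52.4% of all reproducible peaks and 78.5% of the peaks at tRNA genes. Between genes it was 44.0% and near a TSS 44.5%, so the share was not particular to the peaks in genes. Of the first set of stretches above, all but those in Y105C5A.15 and elf-1 contain such a run after the B box.

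**Figure D2:**
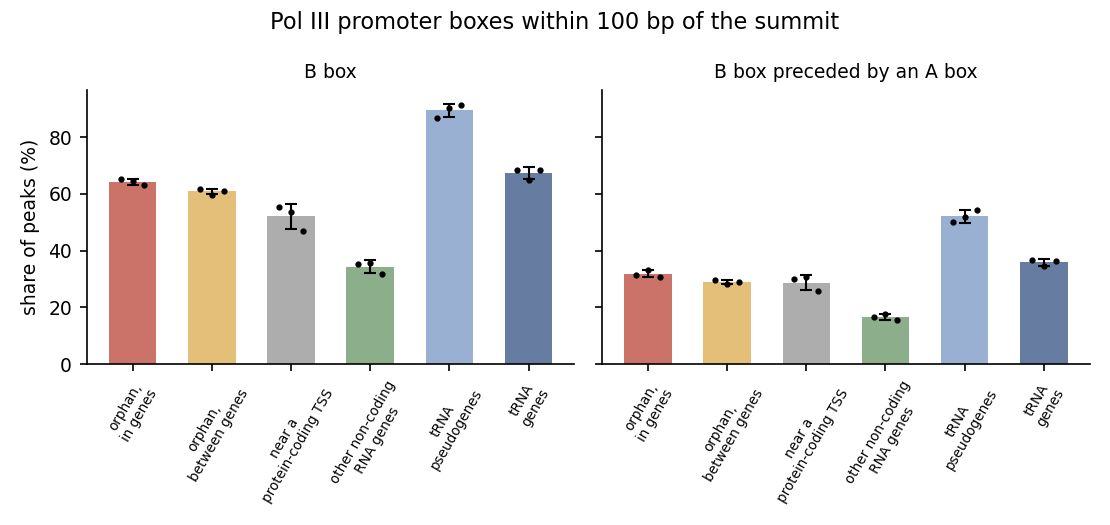
Share of peaks with a B box (left panel) and with a B box preceded by an A box (right panel) within 100 bp of the summit, in %, for 6 kinds of site in the top lists; bars are means, error bars the SD and dots the 3 replicates. Orphan peaks in genes average 64.2% and 31.8%, beside 67.3% and 35.8% at tRNA genes and 34.2% and 16.6% at other non-coding RNA genes.

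The boxes faced either way relative to the host gene. The B box was on the host's strand at 132 of 259 peaks (51.0%, interval 44.7 to 57.2%), and where both boxes were found at 71 of 130 (54.6%, interval 45.7 to 63.4%). The summit sat upstream of the B box on the strand of the box, at a median of -36 bp from its first base, with quartiles of -49 and -14.5 bp. At tRNA genes the median was -38 bp, with quartiles of -43.5 and -12 bp. In the top lists the median was -37 ± 1 bp for the orphan peaks in genes and -29.7 ± 4.04 bp at tRNA genes (mean ± SD, n = 3).

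**Figure D3:**
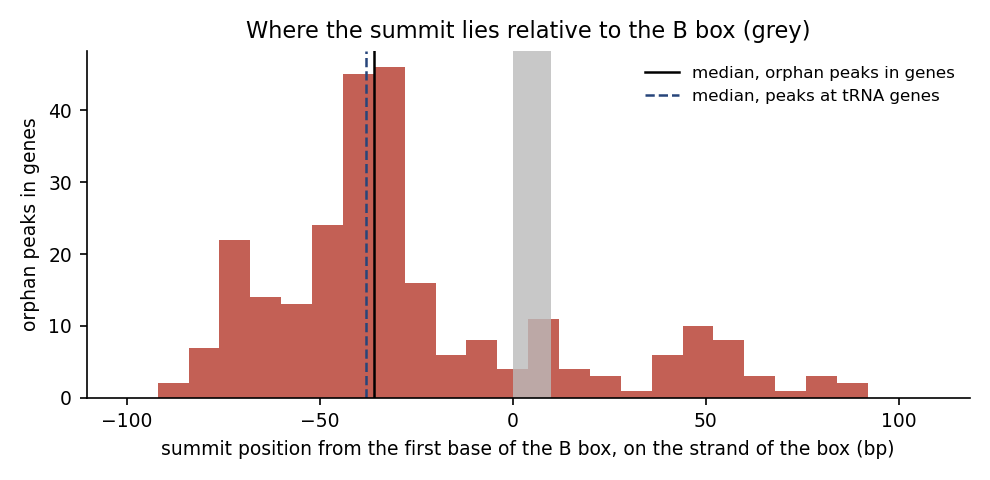
Number of orphan peaks in genes (bars of 8 bp width) by the position of the summit relative to the first base of the B box, in bp on the strand of the box, for the 259 peaks with a B box; the grey band is the box, the solid line the median and the dashed line the median at tRNA genes. Most summits lie upstream of the box, and the medians of -36 and -38 bp almost coincide.

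The whole window of 100 bp either side of the summit was then compared with annotated tRNA genes and tRNA pseudogenes. A tRNA pseudogene matched at 219 of the 395 peaks (55.4%, interval 50.4 to 60.4%), 33 of these also matched a tRNA gene (8.35%), and none matched a tRNA gene alone (exact upper limit 0.930%). Over all reproducible peaks 61.2% matched one or the other, and of 2245 evenly spaced windows that meet the distance rule 4 did (0.178%). Between genes the share was 47.6%, with an interval of 43.0 to 52.2% that overlaps that of the peaks in genes. Both a B box and a match were present at 198 peaks, either at 280 (70.9%, interval 66.1 to 75.3%) and neither at 115 (29.1%). The peaks with neither had a median signal of 169.9, against 229 for the 280.

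The best matches were unevenly spread over the annotated pseudogenes. Of 66 that were the best match of a peak, F53B1.t1 was it for 60 peaks, Y94H6A.t1 for 16 and C54E10.t2 for 15. The 60 peaks were in 56 genes on all 6 chromosomes, and their identity to F53B1.t1 ran from 75.9 to 92.9%, with a median of 87.1% over a median of 66 bp. A B box was present at 55 of them, an A box in front of it at 7, and 46 were found in every replicate. Their signals ran from 80.8 to 1811, the highest being that in T02C5.1. The peak in F56H6.13, intronic and with an A box, had signal 783, above those in C11H1.7 (230) and unc-7 (189). It is not on the X chromosome, and its stretch is not shown. A single reproducible peak overlapped F53B1.t1 itself. The pseudogene's own stretch shown above holds the same B box as the sto-2, C11H1.7 and unc-7 stretches.

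The genome holds many stretches like those under the peaks, and many of them carried no reproducible peak. How reads from repeated sequence were placed is not known here, so a stretch without a peak cannot be called unbound. Within the eligible bases there were 612 exact B boxes, and 145 had a reproducible summit within 100 bp (23.7%, interval 20.4 to 27.3%). With an A box in front the share was 84 of 280 (30.0%, interval 24.7 to 35.7%), and without one 61 of 332 (18.4%, interval 14.4 to 23.0%). Of the boxes with at most 1 mismatch, exact ones included, 143 of 425 with an A box had such a summit (33.6%, interval 29.2 to 38.4%). Boxes with at most 1 mismatch and no A box were far more common and rarely had such a summit, at 182 of 5356 (3.40%). Counting summits of the longer pooled list, which includes background, the shares were 40.2% of the exact boxes, 50.7% of those with an A box, 31.3% of those without one, and 8.38% of the boxes with at most 1 mismatch and no A box. Of 1486 genomic loci similar to the windows of the orphan peaks in genes, 620 had a reproducible summit (41.7%, interval 39.2 to 44.3%) and 887 a summit in the pooled list (59.7%). Those loci were found from windows that were themselves under peaks, so the share is a description only.

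Many of the peaks were in repeated sequence. At least 50% of the 36-base words of the window occurred again in the genome at 94 peaks (23.8%, interval 19.7 to 28.3%), against 13.8% over all reproducible peaks, 2.79% at tRNA genes and 5.79% of the evenly spaced windows. Orphan peaks between genes had 22.6%. Similar copies of at least 80% identity over at least 100 bp were also counted, the window itself included. The median was 7, 108 windows were single, and 181 (45.8%) had 10 or more, against 9.44% of the evenly spaced windows. Of the orphan peaks between genes 39.4% had 10 or more, so this was not particular to the peaks in genes. The 395 windows formed 250 groups of similar sequence, 213 of them with 1 peak and 13 with 5 or more.

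The largest groups were of different kinds. The largest held 37 peaks in 35 genes, all similar to a tRNA pseudogene, and 30 had a B box. Its strongest peak was in ptr-24, a patched-related gene, and best matched F53B1.t1. The second held 20 peaks in 20 genes, among them osm-12, a gene of ciliated neurons, with signals from 87.1 to 922. Only 1 of its peaks had a B box and 1 matched a tRNA pseudogene. By overlap of intervals 18 of the 20 were found in every replicate, but 18 also shared their strongest overlapping peak in at least 1 replicate with another reproducible summit that has a B box. By summits within 100 bp 11 of the 20 were found in every replicate. The third held 12 peaks in 10 genes, with both boxes in all 12 and a match to a tRNA gene or pseudogene in none, and 4 were found in every replicate. The fourth held 9 peaks, all with both boxes and all similar to Y94H6A.t1. The group of srt-52, with 5 peaks on 4 chromosomes, had both boxes throughout and signals from 156 to 5136.

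The 4 peaks in coding sequence were in spe-9, which encodes a sperm protein needed for fertilization, in F23G4.1, in Y6B3B.1 and in Y43F8C.11, with signals of 758, 230.6, 215 and 82.8. The spe-9 summit lay 236 bp from the tRNA gene C17D12.t2, and its interval of 2075 bp, the longest of all, covers that gene, so the ranks of 326, 307 and 357 of the overlapping replicate peaks are not those of the spe-9 summit alone. Only the summit in Y6B3B.1 had a B box. Among the 14 UTR peaks the one in tlp-1, which encodes a zinc finger transcription factor, had signal 5088, and the next, in shc-1, had 628. The summits in rpl-3, a ribosomal protein gene, and its neighbour tir-1 were on overlapping intervals with signals of 118 and 77.3, and neither had a B box.

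The host genes numbered 255. A single peak was held by 167 of them, 2 peaks by 62, and 3 or more by 26. The gene with the most was kcnl-1 (chrV:19565382-19606124), which encodes a potassium channel of the calcium-activated family and held 10 summits on a gene of 40743 bp. Their signals ran from 77.9 to 1340, 7 had a B box, and they fell into 9 groups of similar sequence, so they were mostly not copies of each other. Another 5 genes held 5 each, and the 4 of these with the highest summed signal are described here. In frl-1 (chrIII:2124137-2151554), a formin-related gene, all 5 had a B box with no mismatch, with signals of 748, 435, 201.2, 165 and 133, and all were found in every replicate. In lgc-55 (chrV:20023046-20036667), which encodes a ligand-gated ion channel, 4 of 5 had a B box and the signals ran from 79.5 to 363. The 5 peaks in F20B6.9 (chrX:4204638-4207485) lay in 1 intron of 1430 bp, and 1 had a B box. The 5 peaks in npr-20 (chrII:8860004-8865178), a neuropeptide receptor gene, also lay in 1 intron, and 2 had a B box. The peaks in F20B6.9 and npr-20 were in repeats with 31 to 62 copies, and 3 of the 5 in npr-20 consisted wholly of repeated 36-base words. Host genes were long: the median length over the peaks was 6862 bp, against 5428 bp when each eligible base is given the length of its gene.

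Counted by gene family, with genes placed by symbol and RefSeq product, no list took more than 4.30% of the peaks. Chemoreceptor genes held 17 peaks in 11 genes (4.30%), against 3.80% of the eligible bases, led by srt-52 (signal 5136), srd-66 (1681) and srh-301 (1109). All 17 were on a chromosome arm and 10 had a B box, against 88.1% and 65.6% of all orphan peaks in genes. In srd-66 and Y26G10.1 a pair of these summits shared an interval. Genes of nuclear hormone receptors, a transcription factor family that is large in this species, held 14 peaks in 8 genes (3.54%), against 1.52% of the eligible bases. All 14 were on a chromosome arm and 9 had a B box. In nhr-41, nhr-236 and nhr-230 a pair of these summits shared an interval, so the 14 are not all separate sites. The strongest were in nhr-236 (signal 2449), nhr-41 (1404) and nhr-230 (558). F-box, MATH and BATH genes, whose products mostly recognise substrates of ubiquitin ligases, held 13 peaks in 7 genes (3.29%), against 2.01% of the eligible bases. The strongest of these were in Y50D7A.1 (335) and in fbxo-11.2 (334 and 234, on a shared interval). All 13 were on a chromosome arm and 8 had a B box. In every replicate 5 were found, against 13 of the 17 peaks of chemoreceptor genes and 10 of the 14 of nuclear hormone receptors. Over all orphan peaks in genes that share was 72.2%. By symbol alone the chemoreceptor list held 12 peaks (3.04%, against 3.67% of the eligible bases). That of nuclear hormone receptors held 14 (3.54% against 1.45%) and that of F-box, MATH and BATH genes 9 (2.28% against 1.10%). Listed neuronal channel and synapse genes held 6 peaks in 2 genes (1.52%, against 0.979% of the eligible bases), all on a chromosome arm. C-type lectins held 4 in 3 genes (1.01% against 0.851%). Collagens held 1 (0.253% against 0.382%) and ribosomal protein genes 1 (0.253% against 0.0272%). No peak fell in the listed genes of Pol III and its factors, aminoacyl-tRNA synthetases, heat shock proteins, histones, major sperm proteins, muscle structure, translation factors or vitellogenins. These lists are small targets: the largest of them, muscle structure, takes 0.686% of the eligible bases. Of the 72 listed histone genes only 5 have an eligible base. None of the 31 major sperm protein genes has one, so that list could hold no peak under the distance rule.

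The signal was mostly low. The caller's signal had a median of 214 over the orphan peaks in genes, with quartiles of 129 and 430 and a range of 76.7 to 6946. Peaks at tRNA genes had a median of 2936, other non-coding RNA genes 527, orphan peaks between genes 277, tRNA pseudogenes 257 and peaks near a TSS 196. When all reproducible peaks were ranked by signal and cut into 4 equal parts, 10 of the orphan peaks in genes were in the strongest part, 82 and 140 in the next parts and 163 in the weakest.

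**Figure D4:**
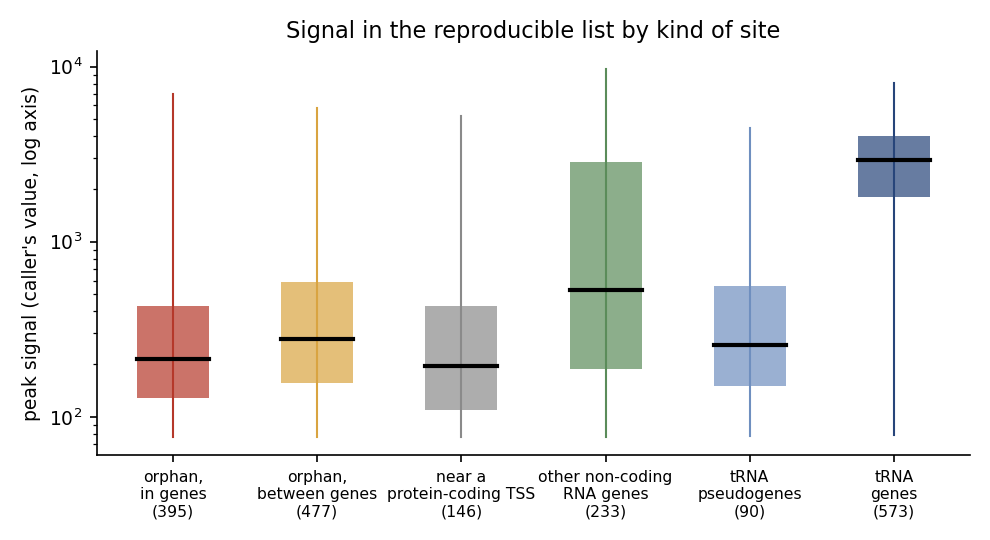
Peak signal in the reproducible list (the caller's value, log axis) for 6 kinds of site, with the number of peaks in brackets; boxes span the quartiles, black lines are medians and thin lines the full range. Orphan peaks in genes have a median of 214 and a maximum of 6946, so the upper end reaches the range of tRNA genes, whose median is 2936.

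The 12 strongest had signals from 1811 to 6946, all 12 were found in the top list of each replicate, 11 had a B box, 11 were on a chromosome arm and 11 in an intron. The ranks given here are those of the strongest overlapping peak in each replicate's full list. The peak in zip-7, a bZIP transcription factor gene, had signal 6946 and ranked 15th, 11th and 10th in the lists of replicates 1, 2 and 3. The peak in lips-10, a lipase gene, had signal 6082 and ranked 47th, 32nd and 23rd, and it was the only one of the 12 in the middle of a chromosome. The peak in the chemoreceptor gene srt-52 had 5136 and ranks of 88, 83 and 93. These 3 peaks were thus within the top 100 in every replicate, as was that in elf-1, given below. The tlp-1 peak had 5088 with ranks of 131, 86 and 84, and that in Y105C5A.15 had 4851 with ranks of 97, 126 and 98. The peak in elf-1 had 4309, ranked 96th, 60th and 57th, and sat in an intron of 17822 bp, the longest of all. Its summit lay 239 bp from the snoRNA gene C24A1.8, and its interval reaches that gene. These ranks may therefore not be those of the elf-1 summit alone, though every top list had a summit within 100 bp of it. Then came gfrl-1 (3492), F59A1.13 (3112), Y59E1A.4 (2917), nhr-236 (2449), Y73F8A.26 (1947) and T02C5.1 (1811). Of the 12 host genes 6 are on chromosome IV.

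The windows in zip-7, tlp-1, Y105C5A.15, elf-1, Y59E1A.4 and Y73F8A.26 matched no tRNA gene or tRNA pseudogene, whereas those in lips-10, srt-52, gfrl-1, F59A1.13, nhr-236 and T02C5.1 did. F59A1.13, which has no B box within 1 mismatch, matched the pseudogene B0399.t13. Of the 12, 10 had a window with no similar copy elsewhere. The exceptions were srt-52 with 32 copies in all and elf-1 with 4.

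In 4 equal parts of the orphan peaks in genes, from the strongest to the weakest, a B box was present at 73.7%, 66.7%, 66.3% and 55.6%. The share on the arms was 88.9%, 83.8%, 87.8% and 91.9%. The share found in the top list of every replicate was 97.0%, 91.9%, 66.3% and 33.3%.

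In all, 285 of the 395 peaks were found in the top list of every replicate (72.2%, interval 67.4 to 76.5%), against 84.0% of all reproducible peaks. A further 44 were found in 2 replicates, 34 in 1 and 32 in none. Between genes the share found in every replicate was 77.4%, near a TSS 72.6% and at tRNA genes 99.0%. In the full replicate lists, which hold 24182, 24563 and 30000 peaks and include background, 9 of the 395 had no overlapping peak in at least 1 replicate. The median percentile rank of the orphan peaks in genes, with the strongest peak of a list at the top, was 94.5, 94.2 and 95.4 in replicates 1, 2 and 3, or 94.7 ± 0.641 (mean ± SD, n = 3). It was 98.7 ± 0.139 for peaks at tRNA genes and 95.3 ± 0.550 for orphan peaks between genes. The orphan peaks in genes differed from tRNA gene peaks by -4.03 ± 0.506 points and from orphan peaks between genes by -0.641 ± 0.139 points, and were lower in 3 of 3 replicates in each case. From the peaks near a TSS they differed by less than the spread between replicates, with a difference of -0.0066 ± 0.140 points.

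**Figure D5:**
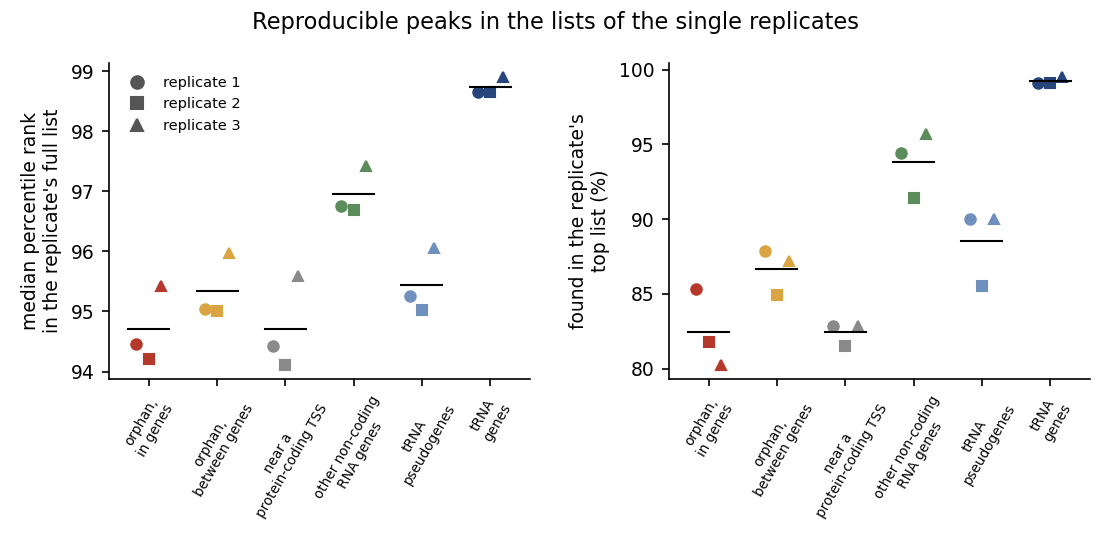
Reproducible peaks of 6 kinds of site in the lists of the single replicates, as the median percentile rank in the full list (left panel) and as the % found in the top list (right panel); symbols are the 3 replicates and black lines their means. Orphan peaks in genes average 94.7 and 82.4%, the tRNA genes 98.7 and 99.2%.

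Reproducibility varied with the sequence under the peak. Peaks with at least 50% repeated words were found in every replicate in 45 of 94 cases (47.9%), the others in 240 of 301 (79.7%). Single-copy windows were so in 90 of 108 cases (83.3%) and windows with 10 or more copies in 115 of 181 (63.5%). The middle parts of chromosomes had 26 of 47 (55.3%), and the arms 259 of 348 (74.4%). Repeated words made up at least 50% of the window at 27 of the 47 peaks in the middle parts and 67 of the 348 on the arms. Among peaks below that level the share found in every replicate was 15 of 20 (75.0%) in the middle parts. On the arms it was 225 of 281 (80.1%). Whether repeated words account for the difference between the middle parts and the arms was not tested. Peaks with a B box ranked higher than those without by 0.416 ± 0.0752 percentile points, in 3 of 3 replicates.

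Peaks found in the top list of no replicate had signals of at most 183, with a median of 102. The strongest was in dyf-17, a gene of sensory cilia, with ranks of 1991, 1938 and 2964, an exact B box and a single-copy window. The next was in F59F5.3, with signal 169.9, ranks of 4424 and 2390 in replicates 1 and 3, and no overlapping peak in replicate 2. The third was in erp-44.3, with signal 156 and ranks of 2098, 2302 and 3879. The dyf-17 ranks in replicates 1 and 2 were thus just below the end of the top lists.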

How the data were processed

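ChIP-seq peak lists of 3 biological replicates, of the pooled replicates and of the reproducible peaks on ce11 were used. They carry the caller's signal value as deposited, which ranks peaks within a list only, and a −log10 q value as deposited, which was at 1 value throughout the reproducible list and was not used. Per the deposited file lists, the replicate and pooled lists hold background as input for IDR. The sources used here name neither the caller nor the aligner, and the lists give no read numbers, so depth is unknown and intervals cover counting error only. The reproducible list is said there to derive from the other lists, yet 0 of its peaks had the same interval and summit in the pooled list, so values from the replicates' top lists are given as well.

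Nuclear peaks were placed on the RefSeq annotation of WBcel235 with Python 3.11.15, NumPy 2.4.6 and pandas 2.3.3. Eligible bases are those at which a summit would have met the same distance rule. A summit was called intronic when it lay in an exon of no transcript and an intron of at least 1. The B box was searched on both strands within 100 bp of the summit and the A box on the same strand 25 to 80 bp upstream. The motifs do not overlap. Windows were compared with tRNA genes and tRNA pseudogenes by BLAST+ 2.17.0 (E value at most 1e-05) and with the genome (at least 80% identity over 100 bp, E value at most 1e-10), and 1 window every 20000 eligible bases gave the evenly spaced set. The scans were tested on simulated data. Intervals on shares are exact (Clopper-Pearson, 95%, SciPy 1.17.1).

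Peaks named are the 12 strongest, those in the 5 genes with most peaks, the 3 strongest of each of the 3 host gene lists with most peaks, the 3 nearest to each distance limit on either side, the 3 strongest with an exact B box and the 3 strongest found in no replicate. Chosen after their values were seen were the peaks outside introns and the leading genes of sequence groups. So were T02C5.1, F56H6.13, sto-2, C11H1.7 and unc-7 among the matches to F53B1.t1. The use of RefSeq products beside symbols in the gene lists was also chosen after the values were seen. The peaks and gene lists were chosen with earlier results of these data known.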

Additional observations from a re-analysis of the deposited data

How the results depend on the processing

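Of 56 alternatives over 10 results, 43 stayed close to the value as reported (within the exact 95% interval for shares, an order-statistic 95% interval for the median signal, 1 SD for ranks and 1.5 times for the number of peaks). The stronger 50% of the reproducible list held 92 orphan peaks in genes, and the other alternatives gave 312 to 448. The intron share was 92.3% in the list of replicate 2, chosen after seeing the data, just below the interval. The arm share was 81.0% when each arm was the outer 25% of a chromosome and 91.4% in the pooled list. The share found in every replicate was 16.7% with top lists of 50% of the length, 91.4% with top lists 2 times as long, 53.7% when summits had to lie within 100 bp, and 75.2 to 76.2% with 1 replicate left out. The median percentile rank with 1 replicate left out was 94.3 to 94.9. A B box was found at 32.7% with no mismatch, 36.5% within 50 bp and 67.2% with 1 peak per group of similar windows. Repeated sequence covered 40.5% of peaks when 20% of words sufficed and 8.35% when 80% were required. Chosen after seeing the data, an A box with at most 2 mismatches gave 53.2%, and an E value of at most 1e-10 gave 43.0% similar to a tRNA gene or pseudogene. No paired analysis was possible because the samples form 1 group. The files give no read depth or control values, so a peak's height cannot be set against background.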

Other observations

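The 115 orphan peaks in genes with neither a B box nor a match to a tRNA gene or tRNA pseudogene had windows with a median of 17 similar copies, and 23 of the 115 were single. At least 50% of the 36-base words were repeated at 46 of the 115. Of these peaks 91 were on a chromosome arm and 105 in an intron, with signals from 76.8 to 1681. By overlap of intervals 74 of the 115 were found in every replicate. Such an overlapping replicate peak can be shared with another summit that has a B box, as for 18 of the 20 peaks in the group of osm-12. The 74 are therefore not all separate sites in the replicates. The strongest was in srd-66, a chemoreceptor gene, at ranks 585, 626 and 522. Its best B box stretch had 2 mismatches, with an A box of 1 mismatch 54 bp before it. The 5 peaks of the group of K02F6.3 had no B box, and none was found in the top list of every replicate. Their strongest overlapping peak in at least 1 replicate was shared, for 4 of the 5, with another reproducible summit that has a B box. The 5 peaks of the group of hpo-38 all had a B box without an A box and lay on 5 chromosomes. By overlap of intervals 4 of them were found in every replicate, but by summits within 100 bp only 1 was. In at least 1 replicate 2 of the 5 shared their strongest overlapping peak with another reproducible summit that has a B box.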
